A study of Saccharomyces cerevisiae with 4 samples.

Results

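The segment described here is a 70 kb stretch of the left arm of chromosome III of Saccharomyces cerevisiae, from 15 to 85 kb. Its members are the listed nucleosomes with a midpoint in that range, which are 398 of 60557 in wild type (WT) and 386 of 57674 in nhp6ab. It was chosen because counts of acetylated histone H4 lysine 16 (H4K16ac) are high there in both genotypes. The height itself is therefore given as a description, with no test. Its comparator is the rest of the same chromosome from 100 to 296.6 kb, called the reference below, with 981 nucleosomes in WT and 933 in nhp6ab. The annotation places 43 genes in the segment, 42 of them protein-coding and 1 a transfer RNA (tRNA) gene.

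H4K16ac was measured by chromatin immunoprecipitation and sequencing (ChIP-seq) in WT cells and in nhp6ab cells, both growing exponentially in YPD, a rich glucose medium, and fixed with 1% formaldehyde. The labels give 2 libraries per genotype and name no treatment, strain background, mating type or allele structure. Each genotype came as 1 table with a single column of read counts per called nucleosome. How far replicates differ can therefore not be seen. The genotypes were compared without a test, and all intervals below cover counting error only. The tables hold 26526939 counts in WT and 20293261 in nhp6ab. As a check of the labels, counts over the open reading frames of NHP6A and NHP6B in nhp6ab were 57.4% and 83.6% of those expected from the totals, so both were lower but neither was free of reads.

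Acetylation of H4 lysine 16 is placed by acetyltransferases such as Sas2 and Esa1 and is removed by Sir2, the deacetylase of silenced chromatin. The left end of chromosome III carries HML, a silent mating-type cassette kept deacetylated by the Sir proteins. Away from such loci the mark covers most of the yeast genome. Nhp6a and Nhp6b are small HMG-box proteins that bend DNA and act with the histone chaperone FACT. A ChIP count also moves with the number of DNA copies and with how well reads can be placed. No input library was used here, so acetylation, nucleosome occupancy and DNA copies in the segment cannot be told apart.

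The segment carried about 2-fold the count of the rest of its chromosome in both genotypes. The median count per listed nucleosome was 910 in the segment and 461 in the reference in WT, a fold of 1.97 (log2 0.98). In nhp6ab the medians were 729 and 361, a fold of 2.02 (log2 1.01). By the mean per nucleosome the fold was 1.96 (95% counting interval 1.95 to 1.97) in WT and 1.99 (1.98 to 2.003) in nhp6ab. The segment thus held 1.33% of all counts in each table from 0.657% of the WT nucleosomes and 0.669% of those of nhp6ab. At these depths, counting error at the segment's median was 3.31% for WT and 3.70% for nhp6ab.

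**Figure D1:**
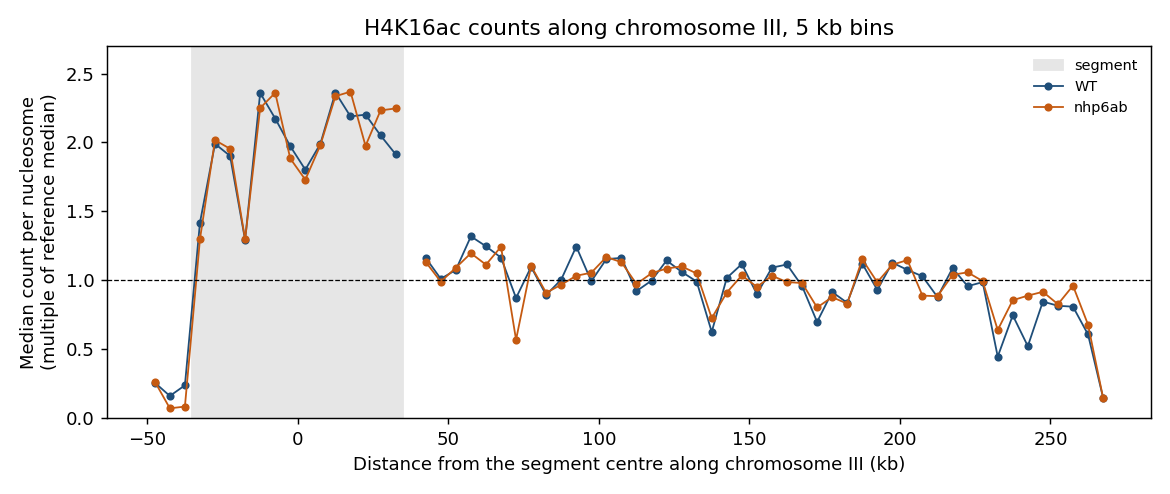
Median count per listed nucleosome in bins of 5 kb along chromosome III, as a multiple of the reference median in the same table, against the distance from the segment centre in kb. In both tables all 14 bins of the shaded segment lie between 1.29 and 2.37, and no nucleosomes are listed in the bin to its right.

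The higher level covered the bulk of the nucleosomes and did not rest on a few high ones. In WT the fold at the 25th, 75th and 90th percentile was 1.92, 1.95 and 2.05. In nhp6ab the same percentiles gave 1.99, 2.05 and 2.09. The lowest nucleosomes stood apart, with a fold of 1.46 in WT and 1.21 in nhp6ab at the 5th percentile. Part of this low tail lay over CHA1 and its flanks, left of the upward step described below. Nucleosomes there held 118 to 344 counts in WT and 113 to 263 in nhp6ab. Of the segment's nucleosomes, 82.9% in WT and 82.4% in nhp6ab exceeded the 90th percentile of the reference. The coefficient of variation was 35.1% in WT and 34.5% in nhp6ab, beside 31.4% and 29.5% in the reference.

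Stretches of the same length on other chromosomes did not reach this level in either table. In WT the medians of 159 tiles of 70 kb ranged from 0.898 to 1.13 times the table's median, and the segment stood at 2.06. In nhp6ab 160 tiles ranged from 0.876 to 1.41, the highest lying on chromosome XII, whose counts are high as a whole in that table, and the segment stood at 2.06. A fit of 3 levels with 2 steps to log2 counts accounted for 45.9% of the variance along chromosome III in WT and 46.7% in nhp6ab. On the other 15 chromosomes the same fit accounted for 2.84% to 14.4% in WT and 1.87% to 11.4% in nhp6ab. The segment was chosen for its high counts, so its place among tiles and chromosomes is a description only. The variance on chromosome III also includes the low left end. There the fitted median was 121.5 in WT and 109.5 in nhp6ab, beside 456 and 359 right of the segment.

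**Figure D2:**
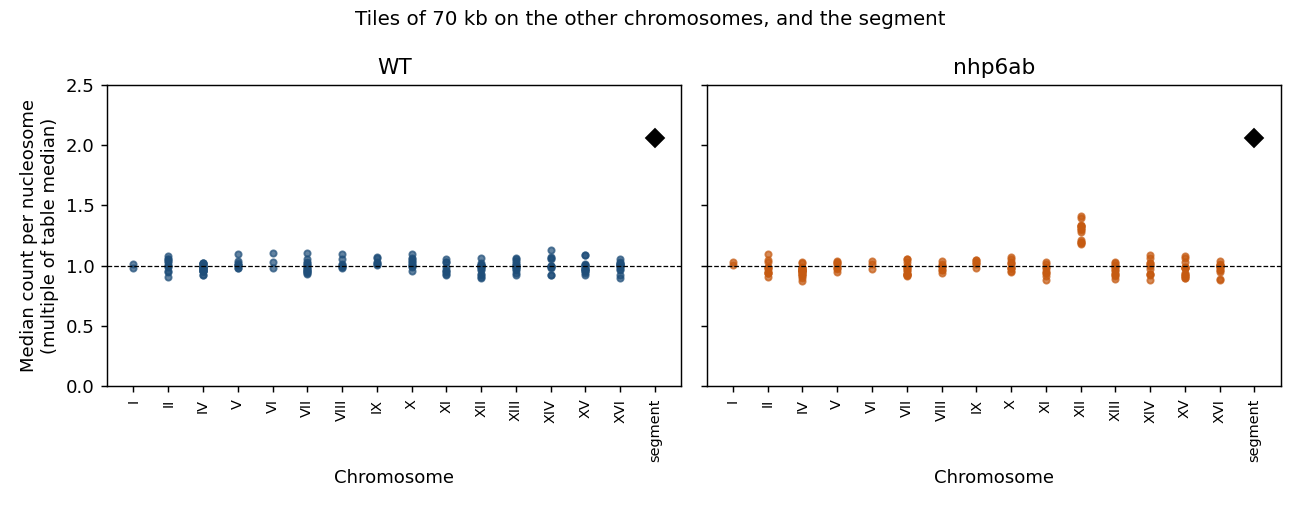
Median count per listed nucleosome in tiles of 70 kb, as a multiple of the table's median, by chromosome. Each point is 1 tile, and the black diamond is the chromosome III segment, which lies at 2.06 in both tables.

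The upward step fell at the same place in both tables, between CHA1 and VAC17. CHA1 encodes the catabolic serine and threonine deaminase, and VAC17 the vacuole receptor that the myosin Myo2 carries into the bud. The fitted step lay at the nucleosome that begins at 17244 in WT and at 17247 in nhp6ab, just upstream of the VAC17 open reading frame (YCL063W, 17290 to 18561). In WT the count changed from 289 at 17067 to 17225 to 610 at 17244 to 17404. In nhp6ab it changed from 221 at 17119 to 17261 to 469 at 17247 to 17407.

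To the left of that step the counts were lower toward HML. From 15379 to 17225, 10 WT nucleosomes over CHA1 (YCL064C, 15798 to 16880) and its flanks held 118 to 344 counts, all below the reference median. The 11 nhp6ab nucleosomes there held 113 to 263. Farther left, the 3 WT nucleosomes from 14154 to 14846 held 77, 137 and 110 counts, and the 2 nhp6ab nucleosomes from 14151 to 14690 held 30 and 31. Over HMLALPHA1 (YCL066W, 13282 to 13809), HMLALPHA2 (YCL067C, 12386 to 13018) and YCL068C no nucleosome was listed, which is not a count of 0. HML shares sequence with the active mating-type locus and with HMR, so the placement of its reads is uncertain.

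To the right of that step the level was higher with distance over about 3 kb. In WT, windows of 1 kb from 14 to 21 kb had medians of 0.239, 0.416, 0.562, 1.42, 1.45, 1.66 and 2.0 times the reference. In nhp6ab the same windows stood at 0.0845, 0.355, 0.476, 1.3, 1.67, 1.89 and 1.72. The largest change between neighbouring windows of this series past 15 kb was that between 16 and 17 kb in both tables. The rule's own left bound at 15000 thus lies below the step, with nucleosomes just outside it at 0.239 in WT and 0.0859 in nhp6ab and just inside it at 0.256 and 0.355.

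The fitted downward step fell at the right end of YCL021W-A, where listed nucleosomes run out before the Ty2 genes. YCL021W-A (83620 to 83997) is an uncharacterised open reading frame, and YCL020W and YCL019W (85102 to 90415) are the gene pair of a Ty2 retrotransposon. The fit placed the end of the high stretch at 83977 in WT, inside YCL021W-A and after a nucleosome of 1187 counts. The next WT nucleosome, from 83956 to 84080, held 456 counts, and one from 84684 to 84840 held 462, or 0.989 and 1.002 times the reference. In nhp6ab the nucleosome from 83830 to 83982 held 867 counts and that from 83956 to 84076 held 473, or 2.40 and 1.31 times the reference. The fit for nhp6ab ended the high stretch after the second of these, at 84076, where the unlisted stretch begins. Least absolute deviations, least squares on counts, a fit up to 200 kb and a minimum of 100 counts each ended it after the first, at 83982. Nothing was listed from there to 90981 in WT, apart from that single nucleosome at 84684, or to 90962 in nhp6ab. The level over the retrotransposon itself was not measured. A fit can place a step only at listed nucleosomes. In WT the main fit and all 6 alternative settings placed the fall at 83977, with the nucleosomes of 456 and 462 counts after it. In nhp6ab the main fit places the fall no more closely than between 84076 and the first nucleosome beyond the unlisted stretch.

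Beyond the unlisted stretch the gene levels were lower than on the plateau. The first listed nucleosome there held 96 counts in WT and 65 in nhp6ab, or 0.208 and 0.180 times the reference. LEU2 (YCL018W, 91324 to 92418), the isopropylmalate dehydrogenase of leucine synthesis and a common marker gene, stood at 1.16 times the reference in WT and 1.13 in nhp6ab. Its neighbours NFS1, the cysteine desulfurase, and DCC1, of sister chromatid cohesion, stood at 1.13 and 1.27 in WT and 1.10 and 1.28 in nhp6ab. BUD3, of bud site selection, stood at 1.00 in WT and 0.983 in nhp6ab. SUP53 (YNCC0002W, 90859 to 90972), a tRNA gene between the retrotransposon and LEU2, had no listed nucleosome in either table.

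**Figure D3:**
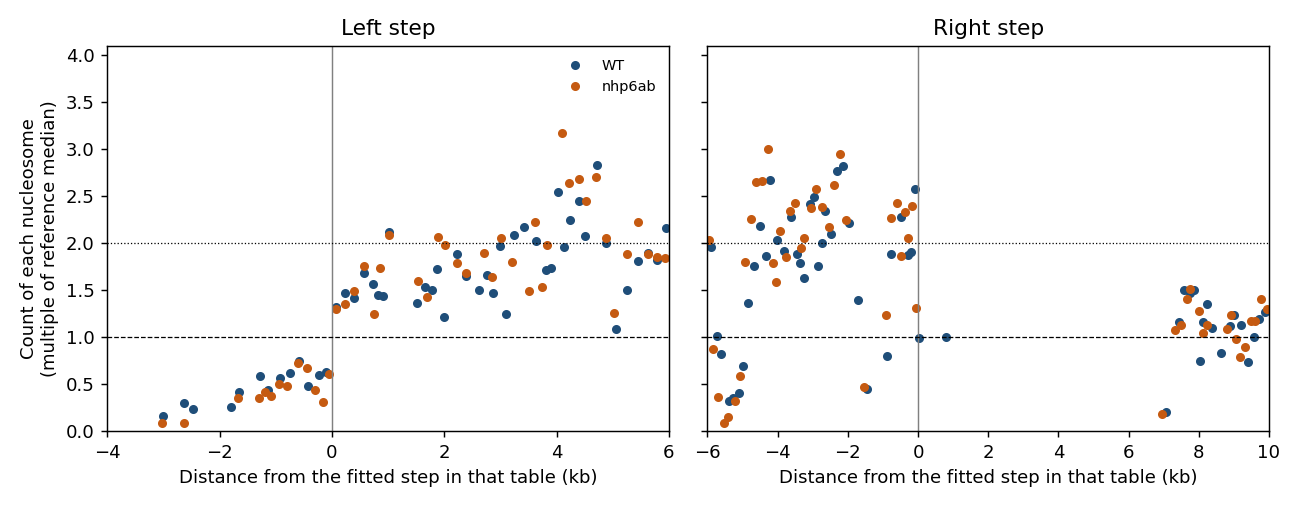
Count of each listed nucleosome, as a multiple of the reference median, against the distance in kb from the fitted left or right step of the same table. Counts of both tables pass from below 1 to above 1 at the left step, and to the right of the right step lies a stretch with no listed nucleosome in nhp6ab and few in WT, after which the first value is 0.208 in WT and 0.180 in nhp6ab.

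Gene by gene, most of the segment was high in both tables. The level of a gene is the median count of its nucleosomes, including 500 bp before the open reading frame, divided by the reference median. In WT 39 of 43 genes were at least 25% above the reference, 3 were at least 20% below it and 1 lay between. Outside the segment 7.31% of WT genes were at least 25% above the reference and 20.6% were at least 20% below it. In nhp6ab 36 of 42 genes were at least 25% above the reference, 3 were at least 20% below it and 3 lay between, where the shares outside the segment were 10.9% and 21.4%. At least 1.5 times were 35 genes in each table, the same 35 genes, where 0.408% of WT genes and 1.88% of nhp6ab genes outside the segment passed. These values chose the segment, so nothing is read from the shares. RDT1, a short open reading frame between KAR4 and SPB1, had 1 nucleosome with 685 counts in WT and none listed in nhp6ab.

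The median gene level was 2.03 in WT (interquartile range 1.77 to 2.33) and 2.06 in nhp6ab (1.82 to 2.28). Across the 42 genes measured in both, the levels had a Pearson correlation of 0.935 and a Spearman correlation of 0.827, given as a description, since genes share nucleosomes and both tables share the genome and its mappability. In the reference the values were 0.890 and 0.863 over 111 genes. Of the WT nucleosomes of the segment, 52 counted for more than 1 gene, and in nhp6ab 55 did.

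**Figure D4:**
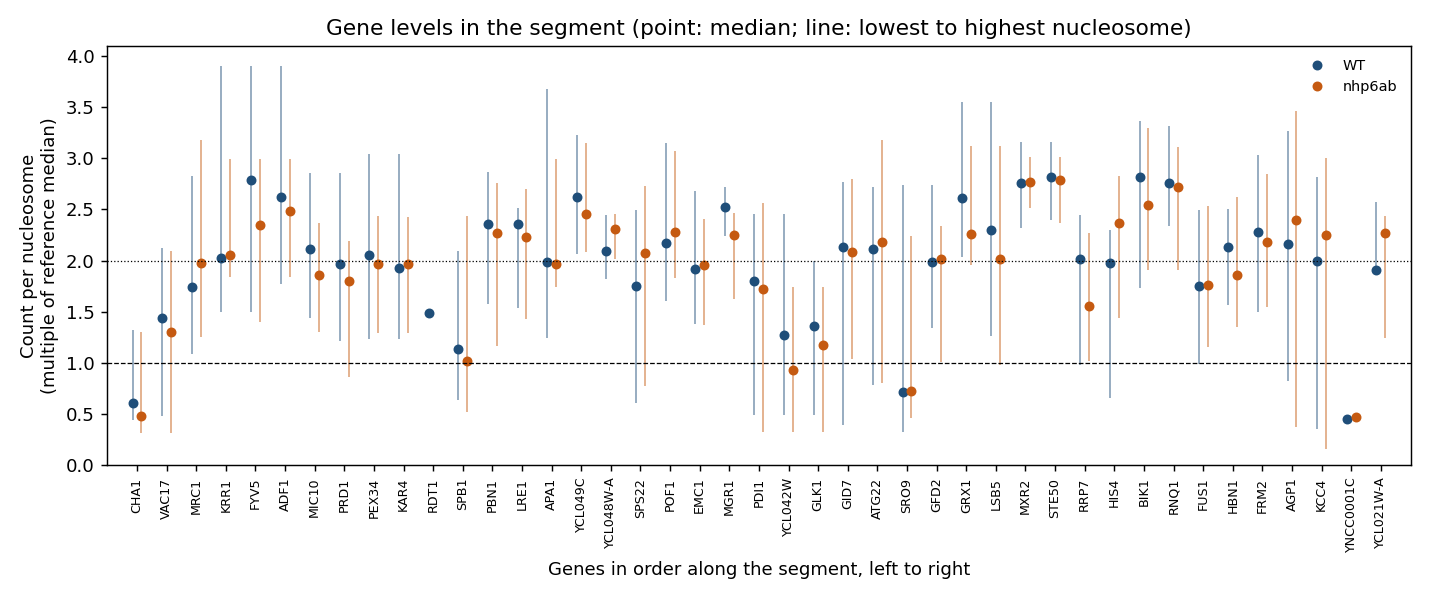
Level of each gene of the segment in order along the chromosome, as a multiple of the reference median (dashed line at 1, dotted line at 2). Points are the median over the gene's listed nucleosomes and lines run from the lowest to the highest nucleosome. CHA1, SRO9 and the tRNA gene YNCC0001C are below 1 in both tables.

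From VAC17 rightward, the left part of the plateau ran through MRC1 to KAR4. VAC17 stood at 1.44 in WT and 1.3 in nhp6ab. MRC1 (YCL061C, 18816 to 22106), the replication checkpoint mediator, stood at 1.74 and 1.98. KRR1, of the small ribosomal subunit processome, was at 2.03 and 2.06. FYV5 (YCL058C, 23523 to 23981) was among the highest genes in WT at 2.79, and stood at 2.35 in nhp6ab. ADF1 lies on the opposite strand inside FYV5, at 2.62 and 2.48, and the reads of these overlapping genes cannot be separated. The nucleosome of the segment with the most counts in WT, 1801 at 23548 to 23708, lies in both.

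Right of ADF1 the levels stayed close to 2 for 4 genes. MIC10, a core subunit of the mitochondrial MICOS complex, was at 2.12 in WT and 1.86 in nhp6ab. PRD1, a metallopeptidase, was at 1.97 and 1.80, and PEX34, a peroxisomal membrane protein, at 2.05 and 1.96. KAR4 (YCL055W, 27929 to 28936), a transcription factor of nuclear fusion in mating, was at 1.93 and 1.96. Inside the KAR4 open reading frame the listed nucleosomes ended, and the next stretch, 28883 to 29570 in WT or 28863 to 29579 in nhp6ab, had none.

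The first run of neighbouring nucleosomes below the reference median inside the steps lay in SPB1. SPB1 (YCL054W, 31449 to 33974) encodes a methyltransferase of large ribosomal subunit assembly, and its level was 1.14 in WT and 1.02 in nhp6ab. The run lay in the gene body, where 8 consecutive WT nucleosomes from 31937 to 33023 held 292 to 451 counts. In nhp6ab 6 consecutive nucleosomes from 31990 to 32980 held 189 to 353. At the 5′ side of the gene the counts were on the plateau, with 966 at 30947 to 31107 in WT and 798 at 30942 to 31094 in nhp6ab.

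Between SPB1 and PDI1 the plateau held without a break for 10 genes in both tables at a limit of 1.5. PBN1 (YCL052C, 34143 to 35393), an endoplasmic reticulum protein of glycosylphosphatidylinositol anchor synthesis, stood at 2.36 in WT and 2.27 in nhp6ab. LRE1 was at 2.36 and 2.23, and APA1, a phosphorylase of diadenosine tetraphosphate, at 1.99 and 1.97. The uncharacterised YCL049C and YCL048W-A were at 2.62 and 2.10 in WT and 2.46 and 2.3 in nhp6ab. SPS22, of spore wall formation, was at 1.75 and 2.07. POF1 was at 2.17 and 2.28. EMC1, of the endoplasmic reticulum membrane complex, was at 1.92 and 1.96, and MGR1, an adaptor of a mitochondrial inner membrane protease, at 2.53 and 2.25. PDI1 (YCL043C, 48653 to 50221), the protein disulfide isomerase of the endoplasmic reticulum, stood at 1.80 and 1.72.

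The next run of at least 2 such nucleosomes lay between PDI1 and GLK1, which are transcribed away from each other. The WT nucleosomes at 50352 to 50512 and 50570 to 50714 held 225 and 252 counts, and the nhp6ab nucleosomes at 50348 to 50506 and 50573 to 50715 held 115 and 137. GLK1 (YCL040W, 50838 to 52340), the glucokinase of glycolysis, stood at 1.36 in WT and 1.17 in nhp6ab. Over its open reading frame alone these levels were 1.67 and 1.18. YCL042W, an open reading frame that overlaps its start, stood at 1.27 and 0.931. It was thus more than 25% above the reference in WT and below it in nhp6ab.

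GID7, of the GID ubiquitin ligase, and ATG22, a vacuolar amino acid exporter, returned to the plateau at 2.13 and 2.11 in WT and 2.09 and 2.19 in nhp6ab. SRO9 then gave the deepest dip of any protein-coding gene inside the fitted steps. SRO9 (YCL037C, 57374 to 58678) encodes an RNA-binding protein with a La motif, and its level was 0.716 in WT and 0.729 in nhp6ab. In WT 9 consecutive nucleosomes from 56696 to 58316 held 151 to 396 counts. In nhp6ab 8 from 56692 to 58314 held 167 to 357. The dip ended inside the 5′ part of the open reading frame, where WT nucleosomes at 58499 to 58659 and 58632 to 58792 held 1147 and 1265 counts and those of nhp6ab at 58501 to 58661 and 58645 to 58765 held 808 and 735.

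From GFD2 to KCC4 the level stayed at 1.5 or more over 14 neighbouring genes in both tables, the longest such run in either table. Outside chromosome III the longest runs at this limit were 2 genes in WT, BOL3 with BOL1 and YNCF0014C with CDC26, and 5 genes in nhp6ab, on chromosome XII. As the segment was chosen for its high counts, the run lengths are a description. GFD2, a protein linked to messenger RNA export, opened the run at 1.99 in WT and 2.02 in nhp6ab. GRX1, a glutaredoxin, was at 2.61 and 2.26, and LSB5, of endocytosis, at 2.30 and 2.02.

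The 4 highest levels of nhp6ab, and 4 of the 5 highest of WT with FYV5 as the other one, lay in this run. STE50 (YCL032W, 63441 to 64481), an adaptor of the kinase Ste11 in mating and osmotic signalling, stood at 2.82 in WT and 2.79 in nhp6ab. Its 8 nucleosomes held 1107 to 1459 counts in WT and 854 to 1089 in nhp6ab. BIK1 (YCL029C, 68599 to 69921), a microtubule plus-end protein needed for nuclear fusion, stood at 2.82 and 2.54. MXR2 (YCL033C, 62776 to 63282), a methionine sulfoxide reductase of mitochondria, stood at 2.76 and 2.77. RNQ1 (YCL028W, 70150 to 71367), a prion-forming protein, stood at 2.76 and 2.72. In these 4 genes no listed nucleosome was below 797 counts in WT or 689 in nhp6ab, so each of their nucleosomes was above the reference median.

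The other genes of the run lay around 2. RRP7, of ribosomal RNA processing, was at 2.01 in WT and 1.55 in nhp6ab, or 1.38 and 1.12 over its open reading frame alone. HIS4 (YCL030C, 65934 to 68333), the trifunctional enzyme of histidine synthesis, was at 1.97 and 2.37. FUS1, a membrane protein of cell fusion in mating, was at 1.75 and 1.76. HBN1 and FRM2, a pair of nitroreductase-like proteins, were at 2.13 and 2.28 in WT and 1.85 and 2.18 in nhp6ab. AGP1 (YCL025C, 76018 to 77919), a broad amino acid permease, was at 2.16 and 2.40, and KCC4 (YCL024W, 79162 to 82275), a septin checkpoint kinase, at 2.0 and 2.25.

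A further dip lay between AGP1 and KCC4, which, like PDI1 and GLK1, are transcribed away from each other. In WT 5 consecutive nucleosomes from 78289 to 79055 held 150 to 380 counts, and in nhp6ab 6 from 78175 to 79054 held 32 to 317. On both sides the plateau resumed, with 906 counts at 78011 to 78161 and 631 at 79044 to 79204 in WT. Not every interval between genes so oriented was low. The WT nucleosome at 35547 to 35707, between PBN1 and LRE1, held 1132 counts. That at 61318 to 61478, between GRX1 and LSB5, held 1637. The tRNA gene YNCC0001C (82462 to 82533) had 1 nucleosome in each table, with 206 counts in WT and 170 in nhp6ab, or 0.447 and 0.471 times the reference. YCL021W-A, at the fitted downward step, was at 1.91 and 2.27.

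Nucleosomes below the reference median were a minority in the segment, which follows from its choice for high counts. In the reference 49.9% of WT nucleosomes and 49.7% of those of nhp6ab were above that median. In WT 44 of 398 (11.1%) were below the reference median, and 32 of them stood in 4 runs of at least 3 neighbours. In nhp6ab 39 of 386 (10.1%) were below it, and 34 of them stood in 5 such runs. In both tables these runs were at CHA1, left of the upward step, at SPB1, at SRO9 and between AGP1 and KCC4. The PDI1 to GLK1 interval was the fifth in nhp6ab. Runs were counted in the segment only, so whether low nucleosomes cluster more here than elsewhere was not tested. Relative to the median gene of its own region, 6 of 43 segment genes in WT were at 0.7 or less (14.0%), beside 13.5% in the reference and 12.9% on the other chromosomes. In nhp6ab the shares were 16.7%, 13.5% and 13.8%.

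Grouped by role, 5 of 9 lists had every member at 1.5 or more in both tables. Over all measured genes of the segment 81.4% in WT and 83.3% in nhp6ab were at that limit, so nothing about role is read from full lists of 2 to 6 genes. These were mating and nuclear fusion (4 of 4, median level 2.37 in WT and 2.25 in nhp6ab), endoplasmic reticulum and protein folding (3 of 3, 1.92 and 1.96), redox and stress (6 of 6, 2.49 and 2.25), replication and cell cycle (2 of 2, 1.87 and 2.11), and the remaining named genes (5 of 5, 2.17 and 2.28). Of mitochondrial, peroxisomal and vacuolar genes 6 of 7 passed (2.11 and 1.96), VAC17 at the left step being the exception. Of genes of metabolism and uptake 3 of 5 passed (1.97 and 1.97), the exceptions being CHA1 at 0.603 and 0.476 and GLK1. Over its open reading frame alone GLK1 passed in WT, at 1.67, but not in nhp6ab, at 1.18. Of genes of ribosomes and RNA 3 of 5 passed (1.99 and 1.55), the exceptions being SPB1 and SRO9. Of 4 tRNA and retrotransposon genes from 10 to 100 kb, YNCC0001C alone had a listed nucleosome of its own. YCL020W and YCL019W shared 1 WT nucleosome, which lies upstream of both open reading frames. The median over all genes on chromosomes other than III was 0.989 in WT and 1.00 in nhp6ab.

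Along genes, the counts of the segment were highest just inside the open reading frames, as were those of the reference. In WT the median count was 844 within 500 bp upstream of open reading frames, 984 in their first 500 bp, 891 from there to 1000 bp and 887.5 beyond. In the reference the same classes held 476, 522, 475 and 423, so that the fold was 1.77, 1.89, 1.88 and 2.10. In nhp6ab the segment held 655, 800.5, 751 and 707.5 and the reference 341, 398, 365 and 338, with folds of 1.92, 2.01, 2.06 and 2.09. In WT the lowest of these classes was upstream sequence in the segment and the stretch beyond 1000 bp in the reference. Nucleosomes in none of these classes numbered 14 in WT and 10 in nhp6ab and had a fold of 1.04 and 1.37. Some of them lie left of the upward step, such as that at 15502 in WT with 192 counts and at 15498 in nhp6ab with 128. These folds are therefore not those of the plateau alone.

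The placement of nucleosomes, which the rule did not use, was slightly denser in the segment. The segment had 56.9 listed nucleosomes per 10 kb in WT and 55.1 in nhp6ab, and the reference 49.9 and 47.5. The median distance between neighbouring midpoints was 158 bp in WT and 156 bp in nhp6ab, beside 163 bp in the reference in both. Intervals of the full 160 bp made up 58.8% in WT and 43.3% in nhp6ab, beside 58.0% and 43.3% in the reference. Of the segment's nucleosomes 69.3% in WT and 70.5% in nhp6ab overlapped a listed neighbour, against 65.1% and 65.7%, so some reads may be counted more than once. Stretches of at least 500 bp without a listed nucleosome numbered 3 in WT and 2 in nhp6ab for the segment, and 11 and 18 for the longer reference. Their full lengths summed to 1823 and 1524 bp for the segment and 16158 and 20494 bp for the reference. The first one of the segment begins left of 15 kb in each table. The long stretch from 84841 in WT and 84077 in nhp6ab runs past 85 kb and is not counted, though it begins inside the segment. The densities per 10 kb include all unlisted stretches, so part of the difference in density lies in them. With 1 table per genotype these differences have no test, and the part of the greater depth in them was not tested.

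Between the genotypes, the segment as a whole differed little. The summed count, scaled to the table totals, gave a log2 ratio of nhp6ab over WT of 0.01 (95% counting interval −0.00 to 0.01). The reference gave −0.05 (−0.05 to −0.04), and the chromosomes other than III and XII −0.04. By the mean count per listed nucleosome the ratios were 0.05 in the segment, 0.03 in the reference and 0.03 elsewhere. Nucleosomes could be matched between the tables within 50 bp for 347 pairs, 87.2% of the WT list and 89.9% of the nhp6ab list, at a median offset of 10 bp. The median log2 ratio of these pairs was 0.03 with an SD of 0.31, beside 0.03 with an SD of 0.33 over 821 pairs of the reference.

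By gene, 4 of 42 segment genes were at least 25% higher in nhp6ab, where 8.66% of all genes were, and 1 was at least 20% lower, where 11.3% were. Higher by the sum were YCL021W-A at 0.51 (95% counting interval 0.45 to 0.56), POF1 at 0.505 (0.46 to 0.55), GRX1 at 0.45 (0.39 to 0.50) and HIS4 at 0.40 (0.36 to 0.43). The first 3 of these had 2 more listed nucleosomes in nhp6ab than in WT, and by the mean per nucleosome they stood at 0.02, 0.14 and −0.14. HIS4 had 1 more, 18 against 17, and its mean ratio was 0.31, the highest of the segment. Lower was YCL042W at −0.47 (−0.55 to −0.39) with 6 nucleosomes in each table, so that its mean ratio was the same. Each of these nucleosomes also counts for PDI1 or GLK1, so the ratio is not a separate result of YCL042W. SRO9 at −0.30 (−0.17 by the mean) and YCL048W-A at −0.29 (0.13 by the mean) followed within the limit. By the mean, 41 of 42 genes were within these limits, the exception being YCL042W.

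**Figure D5:**
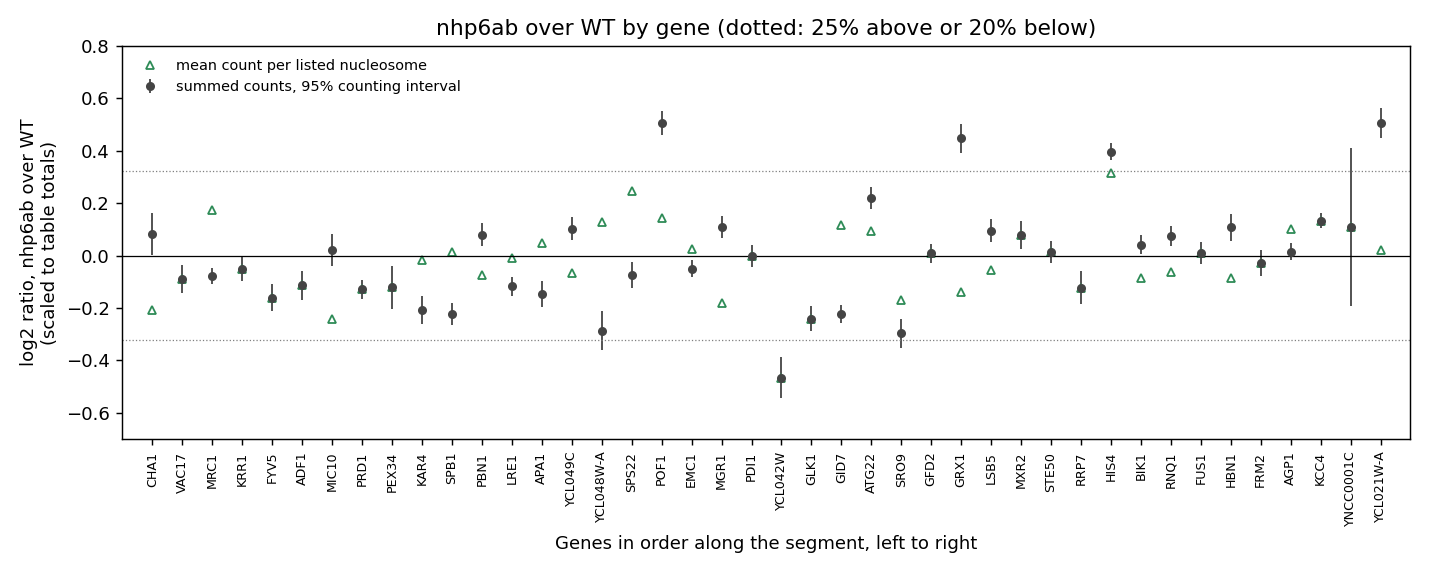
Log2 ratio of nhp6ab over WT for each gene of the segment, scaled to table totals. Filled points are summed counts with 95% counting intervals, open triangles are means per listed nucleosome, and dotted lines mark 25% above and 20% below WT. YCL042W at −0.47 is the lowest, and POF1, GRX1, HIS4 and YCL021W-A lie above the upper line by the sum.

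Over HIS4 the median count per nucleosome, without scaling, was 910 in WT and 855 in nhp6ab, where it was 910 and 729 over the segment as a whole. Its 17 WT nucleosomes ranged from 304 to 1062 counts and its 18 nhp6ab nucleosomes from 520 to 1022. The lowest one in WT, upstream of the gene at 68500 to 68620, had 304 counts and its counterpart at 68512 to 68642 had 520, a log2 ratio of 1.16 (0.95 to 1.37). It was the highest of the 347 pairs.

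The 3 lowest pairs all lay in the interval between AGP1 and KCC4. At 78498 to 78656 the WT nucleosome had 150 counts and its counterpart at 78496 to 78616 had 32, a log2 ratio of −1.84 (−2.44 to −1.28). The WT interval there is the wider of the pair, and the part of that width in the ratio was not tested. At 78289 to 78449, where both intervals are 160 bp wide, the counts were 380 and 133, a ratio of −1.13 (−1.42 to −0.84). At 78629 to 78789 they were 162 and 56, a ratio of −1.15 (−1.61 to −0.70), again with the wider interval in WT. Next, but for 1 pair inside SPB1, came the nucleosome over the start of GLK1, with 921 counts at 50835 to 50995 in WT and 399 at 50831 to 50973 in nhp6ab, a ratio of −0.82 (−0.99 to −0.65). Of the pairs at or past a log2 ratio of 1 in either direction, 3 lower and 1 higher, all 4 lay outside open reading frames, where 52 of the 347 pairs lay. Larger ratios also occurred outside the segment. Pairs of the reference ranged from −2.39 to 1.39, and those of the chromosomes other than III and XII from −5.12 to 1.92. The share of pairs at this limit outside the segment is not given here, so nothing is read from the count.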

How the data were processed

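Per the file headers, the authors deposited 1 table of read counts per nucleosome for each genotype, and per the labels each table is named by both replicates, 4 libraries in all. The deposited chromosome, start and end positions are in bp, and coordinates are printed as the tables give them. The submitters' processing notes name FastQC, Bowtie and the genome build R64. Not given in the sources used here are how nucleosomes were called, how reads were filtered and how replicates were pooled. Counts were taken as deposited, with no minimum. Gene positions and names came from a RefSeq gene table of R64, strands being read from systematic names, and protein roles are background knowledge.

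Levels are median counts divided by the median of chromosome III from 100 to 296.6 kb in the same table, which needs no scaling between tables. Steps were fitted by least squares to log2(count + 1) along chromosome III, trying all pairs of steps with at least 20 nucleosomes per stretch. Ratios between genotypes were scaled to the table totals and required at least 100 counts over both tables, with exact conditional binomial 95% intervals. Such intervals reflect counting alone, as PCR copies of a molecule cannot be recognised without molecular identifiers. Genes named were those around each step, the 4 highest and 4 lowest levels per table, the 3 most extreme ratios in each direction, the 2 members at either end of each list, and LEU2. The remaining genes of the segment, NFS1, DCC1, BUD3 and all single nucleosomes were chosen after their values were seen. The members and lists were chosen with earlier results of these data known. Scripts used Python 3.11.15, numpy 2.4.6, pandas 2.3.3 and scipy 1.17.1 and were checked on simulated counts.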

Additional observations from a re-analysis of the deposited data

How the results depend on the processing

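No paired analysis was possible because both replicates of a genotype share 1 column. For the same reason no replicate could be left out. The log2 level of the segment, 0.98 in WT and 1.01 in nhp6ab, stayed positive under all 8 alternatives. It was 0.97 and 0.99 by the mean per nucleosome, 1.16 and 1.21 by summed counts per kb, 1.04 and 1.07 against all chromosomes other than III and XII, 1.07 and 1.07 for intervals without overlap, 1.02 and 1.03 from 20 to 80 kb, 1.01 and 1.04 over open reading frames, and 0.97 in WT for 160 bp intervals. The ratio of nhp6ab over WT, 0.01, was 0.050 by the mean, 0.032 over matched nucleosomes, 0.045 with totals without chromosome XII, −0.060 scaled to the median count and −0.016 for 160 bp intervals, so its sign changed with the scaling and with the intervals used. Step positions moved by over 1000 bp in 3 cases: the left step to 19178 in WT with at least 50 nucleosomes per stretch and to 19873 in nhp6ab for 160 bp intervals, which also moved the right step in nhp6ab to 82090. In WT 38 nucleosomes lay left of the main step, fewer than the 50 then required, so that setting could not place the step there. In nhp6ab fewer than the required 20 intervals left of the main step were 160 bp wide. On the right, the last 160 bp interval at plateau level in nhp6ab ended at 82090. Counts of genes at least 25% above the reference, 39 in WT and 36 in nhp6ab, ranged from 38 to 41 and from 35 to 36 at that limit, and were 35 and 35 at a limit of 1.5. Counting error at the segment's median, 3.31% in WT and 3.70% in nhp6ab, leaves out the spread between replicates, which is unknown.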

Other observations

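Beyond BUD3, on the same arm and inside the reference stretch itself, lay a run of genes above the reference median in WT. Their nucleosomes count toward that median. There 6 neighbouring genes from SGF29 to LDB16 (103571 to 108791) were at 1.31 to 1.51 times the reference, the longest run at least 25% above the reference in WT outside the segment. SGF29, of the SAGA acetyltransferase complex, was at 1.51, ILV6, the regulatory subunit of acetolactate synthase, at 1.48, and VMA9, of the vacuolar proton pump, at 1.31. In nhp6ab the same genes stood lower, at 1.27, 1.26 and 1.07. GBP2, an RNA-binding protein of messenger RNA export that precedes this run, was at 0.753 in WT and 0.795 in nhp6ab. These values were chosen after they were seen and have no test.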
